A study of Homo sapiens with 5 samples.

Results

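Rb occupancy was examined at 10 receptor tyrosine kinase genes of breast cancer, out of 19962 genes that code for protein and lie on chromosomes 1 to 22 or X. They were ERBB2, ERBB3, ERBB4 and EGFR, the insulin receptor family genes IGF1R and INSR, the fibroblast growth factor receptor genes FGFR1 and FGFR2, and RET and MET. The list was set by gene name. For each gene, the Rb peaks taken were those within 2000 bp upstream to 500 bp downstream of any GENCODE 44 start site of the gene, here called its promoter. Other peaks were added where they lay in the gene body, or where the gene had the nearest protein-coding start site within 100 kb.

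The cells were parental ZR-75-1, an established oestrogen receptor-positive breast cancer line. They had been kept for 4 days in DMSO or in 500 nM abemaciclib, an inhibitor of the kinases CDK4 and CDK6, which phosphorylate Rb. Native Rb was mapped by CUT&RUN, which cuts chromatin with a nuclease tethered to the antibody and sequences the fragments set free. Each treatment had 2 Rb libraries, and a single IgG2a library made from the DMSO cells was the negative control. The files held peak lists, with no expression values, so the identity of the cells and the activity of the receptors could not be checked.

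Receptor tyrosine kinases span the cell membrane, bind growth factors outside the cell and, once paired, phosphorylate each other and the adaptors that dock to them. They feed the RAS to MAPK and the PI3K to AKT pathways, which drive growth and the synthesis of D-type cyclins. In luminal breast cancer these receptors are studied as drug targets and as routes around endocrine therapy and CDK4/6 inhibition.

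In DMSO, replicate 1 had 1438 Rb peaks and replicate 2 had 2582, and in abemaciclib they had 13960 and 12234. Each peak carries a fold over local background and a −log10 p. From this pair a whole-number pileup, the number of fragments stacked at the summit, was solved, for library depth from the peaks with −log10 p of up to 40, and at the receptor genes for all 40 peaks, 11 of them above that value, each to within 0.001 of the listed −log10 p. A library's most frequent background was taken as its mean coverage. It was 0.649 and 0.677 fragments per base in DMSO and 0.656 and 0.521 in abemaciclib. This reading assumes that the peak caller wrote the Rb pileups without scaling them, and the pileups and levels below rest on it. The smallest pileup listed was 5 or 6 fragments in every library, so "no peak" below means that the threshold was not passed in that library. Values at a summit are given as the pileup in fragments and, across libraries, as the pileup over mean coverage. Ranks count from the smallest p in each list.

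Sequence in or beside the main promoter regions is shown first. IGF1R is shown because its promoter was the one receptor promoter with a peak in all 4 libraries, ERBB2 because its upstream promoter region was the only other one with a DMSO peak, RET because its promoter holds E2F letters, MET as a gained promoter, and EGFR because its promoter had a peak in 1 library. The promoter stretches come from RefSeq (GRCh38.p14) and end where untranslated sequence begins, so they cover only part of a region. The IGF1R, RET and MET stretches lie within the regions, the ERBB2 stretch ends at the base before the DMSO replicate 2 peak but lies within the merged region, and the EGFR stretch ends at the base before the region with the single peak. Capitals mark GC boxes (GGGCGG) along with CCAAT boxes and E2F letters, which are TTCCCGC in one form, TTCGCGC in another, and also TTGCCGC as well as TTGGCGC, on either strand. The positions were chr15:98648289-98648538 for IGF1R, chr17:39687844-39687913 for ERBB2, chr10:43076819-43077063 for RET, chr7:116671946-116672195 for MET and chr7:55018767-55019016 for EGFR, all on the plus strand.
IGF1R promoter: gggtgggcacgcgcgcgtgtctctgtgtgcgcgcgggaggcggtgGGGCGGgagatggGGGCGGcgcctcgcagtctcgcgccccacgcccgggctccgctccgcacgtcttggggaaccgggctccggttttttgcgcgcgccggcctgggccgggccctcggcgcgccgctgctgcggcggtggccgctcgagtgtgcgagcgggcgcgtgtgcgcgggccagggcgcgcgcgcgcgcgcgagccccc
ERBB2 promoter: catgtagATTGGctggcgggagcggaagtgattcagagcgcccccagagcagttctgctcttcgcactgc
RET promoter: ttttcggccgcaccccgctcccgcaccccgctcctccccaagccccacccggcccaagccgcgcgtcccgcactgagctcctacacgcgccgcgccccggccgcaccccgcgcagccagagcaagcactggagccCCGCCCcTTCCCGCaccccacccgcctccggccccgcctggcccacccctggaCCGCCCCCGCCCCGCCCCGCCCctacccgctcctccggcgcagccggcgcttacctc
MET promoter: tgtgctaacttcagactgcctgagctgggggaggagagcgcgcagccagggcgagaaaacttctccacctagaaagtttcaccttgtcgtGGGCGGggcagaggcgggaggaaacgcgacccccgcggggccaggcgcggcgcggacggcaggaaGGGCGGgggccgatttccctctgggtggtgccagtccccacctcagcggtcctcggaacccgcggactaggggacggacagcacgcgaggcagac
EGFR promoter: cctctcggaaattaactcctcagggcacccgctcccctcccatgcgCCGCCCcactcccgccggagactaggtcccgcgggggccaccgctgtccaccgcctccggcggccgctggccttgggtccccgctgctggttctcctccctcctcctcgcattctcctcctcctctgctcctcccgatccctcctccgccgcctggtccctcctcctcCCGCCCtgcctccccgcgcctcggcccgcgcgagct

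Gained intron regions of RET and ERBB4 are added as examples outside the promoter windows. Their summits lay 6.71 kb (RET) and 1.56 kb (ERBB4) from the nearest annotated start of the gene. For each, 150 bases centred on the summit are given, from GRCh38 on the strand of the gene. The stretches lay at chr10:43093695-43093844 (plus strand) for RET and chr2:212536892-212537041 (minus strand) for ERBB4. Capitals mark the same letters and also AP-1 (TGANTCA), forkhead (TGTTTAC), the letters of GATA factors, AGATAA, and the oestrogen response half-site (GGTCA). The RET stretch held none of them, and the ERBB4 stretch held 1 CCAAT box and 1 GATA match.
RET intron: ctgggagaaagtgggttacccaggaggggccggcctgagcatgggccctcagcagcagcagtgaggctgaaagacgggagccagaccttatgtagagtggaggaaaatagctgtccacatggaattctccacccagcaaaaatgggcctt
ERBB4 intron: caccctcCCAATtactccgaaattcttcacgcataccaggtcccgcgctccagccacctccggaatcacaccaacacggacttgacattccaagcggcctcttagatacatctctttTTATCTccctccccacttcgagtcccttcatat

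Rb peaks at the receptor genes were almost all found after abemaciclib. DMSO replicate 1 had 1 peak and replicate 2 had 2, while the abemaciclib replicates had 19 and 18. The groups did not overlap, with means of 1.5 ± 0.707 and 18.5 ± 0.707 (SD, n = 2 each) and a difference of 17 peaks. An exact two-sided permutation test gave p = 0.333, the smallest p that 2 libraries against 2 allow. These were 0.0695% and 0.0775% of the DMSO lists and 0.136% and 0.147% of the abemaciclib lists. When only the 1438 strongest peaks of each list were kept, the difference was -0.500 peaks. By its construction this setting removes most abemaciclib peaks, so it cannot show a gain that comes with longer lists.

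Merged across the 4 libraries, the peaks formed 21 regions. Of these, 12 lay at a promoter of the receptor gene itself, 2 at a promoter of another gene, and 7 outside promoters. A region was called gained when both abemaciclib libraries and neither DMSO library had a peak in it, and 14 regions were gained. A further 5 had a peak in 1 abemaciclib library alone. None of the 21 regions overlapped an IgG2a peak, and no receptor gene had an IgG2a peak within 100 kb. The IgG2a list was short, with 589 peaks, 85.7% of which lay off chromosomes 1 to 22 and X.

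All 10 receptor genes had a promoter peak in at least 1 abemaciclib library, against 59.2% of protein-coding genes. A promoter region with a peak in both abemaciclib libraries was present for 9 of the 10, EGFR being the exception, against 52.5% of protein-coding genes. A gained promoter region was present for 8, namely ERBB2, ERBB3, ERBB4, INSR, FGFR1, FGFR2, RET and MET, against 40.1%. A region at any start site of a gene counts, and these genes had from 4 (MET) to 47 (FGFR1) start sites. The shares of all genes were not matched for this number. In DMSO, 2 of the 10 had a promoter peak in a DMSO library, ERBB2 and IGF1R, against 14.1%, and 1 had a region shared by all 4 libraries, against 6.50%. Without DMSO replicate 2, or at a q-value of at most 1e-05, IGF1R alone kept a DMSO promoter peak. With lists of equal length none of the 10 had a gained promoter region, against 1.10% of protein-coding genes.

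**Figure D1:**
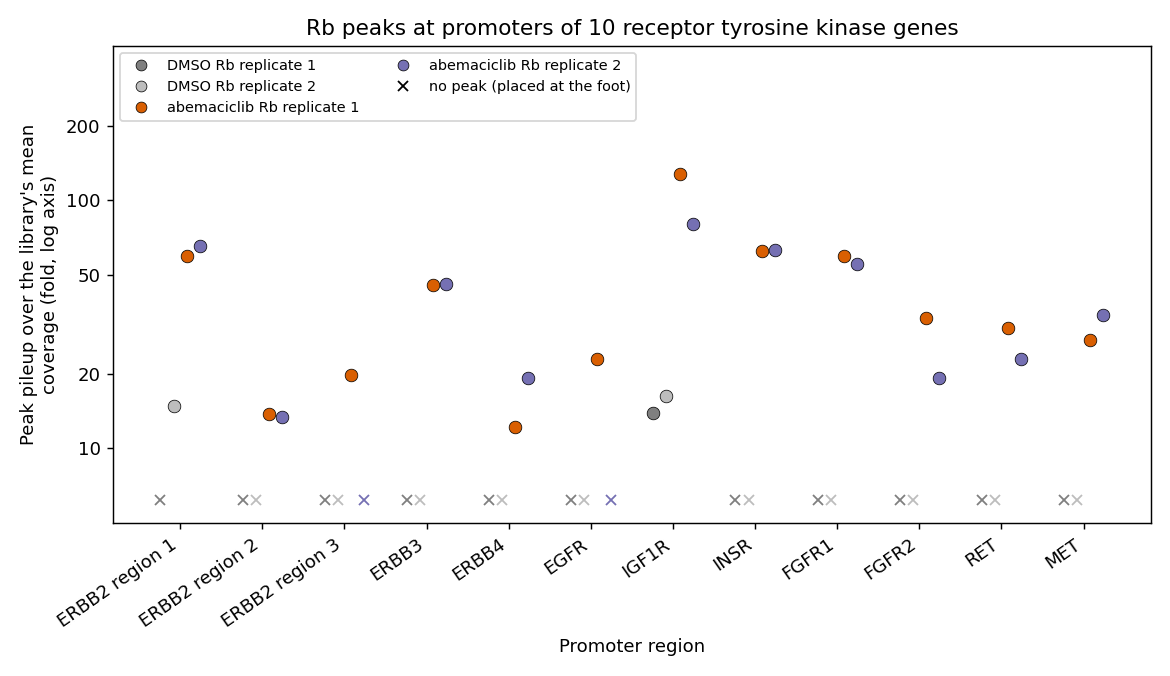
Each point is the Rb peak of 1 library at 1 promoter region of a receptor gene, with the pileup at the summit over that library's mean coverage on a log axis, and crosses at the foot mark libraries without a peak. IGF1R reached 128 and 80.6 with abemaciclib, above the other promoters, and was the only gene with a peak in both DMSO libraries.

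ERBB2, the kinase HER2 that has no known ligand of its own and works in pairs with the other ERBB receptors, had 3 promoter regions along its 21 annotated start sites. The main one, on chromosome 17 from 39687310 to 39688389, lay 12.1 kb upstream of the canonical start, with its summit 31 bp from an alternative ERBB2 start. It also overlapped the promoter of PGAP3, a GPI anchor remodelling gene. DMSO replicate 2 had a peak of 10 fragments there (fold 6.13, −log10 p 9.01, rank 1233 of 2582), and DMSO replicate 1 had none. The abemaciclib peaks held 39 and 34 fragments (fold 22.6 and 21.9, rank 3227 and 2578). Over mean coverage, the DMSO peak stood at 14.8 and the abemaciclib peaks at 59.5 and 65.2, so both exceeded the single DMSO value.

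The canonical ERBB2 start carried far less Rb. The region from 39699688 to 39700317, whose summit fell in a UTR 131 bp downstream of that start, was gained with 9 and 7 fragments and ranked 12787 and 11111, near the end of both lists. At a q-value of at most 1e-05 neither of its peaks remained. ERBB2 still counted as gained there through the upstream region, whose DMSO peak was lost at that threshold. The region at the canonical start was the one gained receptor region that would not pass both DMSO lists at their own depth: scaled to the coverage of DMSO replicate 1, the 9 fragments became 8 and the −log10 p 4.60, below the lowest value of 5.10 listed there. Another promoter region, 3.29 kb downstream of the canonical start, had a peak of 13 fragments in abemaciclib replicate 1 alone. At the 3′ end of ERBB2, a gained region at the promoter of MIEN1, a neighbouring gene of the HER2 amplicon, held 10 and 13 fragments.

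ERBB3 encodes HER3, a neuregulin receptor with weak kinase activity that signals through its partners. Its promoter region, on chromosome 12 from 56079051 to 56081001, was gained and spanned 1951 bp over 12 of its 32 start sites. The peaks held 30 and 24 fragments, with fold 12.4 and 11.5 and rank 5389 and 5081. Over mean coverage these were 45.7 and 46.0, which differed less between replicates than at most other receptor promoters. No other region was assigned to ERBB3.

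ERBB4, a neuregulin receptor linked to differentiation of the mammary gland, had weak regions at the start of its 1163 kb gene on chromosome 2. The promoter region from 212538675 to 212539374 was gained with 8 and 10 fragments and ranked 11351 and 8442. A gained region in the first kilobases of the gene, from 212536810 to 212537873 and peaking in an intron 1835 bp downstream of the canonical start, held 12 and 7 fragments. Over mean coverage the promoter stood at 12.2 and 19.2 and the intron region at 18.3 and 13.4, so their order was opposite in the replicates. With a promoter window of 1000 bp on both sides the intron region was no longer outside promoters, and at a q-value of at most 1e-05 neither region was gained.

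EGFR, the receptor for EGF, TGFα and amphiregulin, was the member with the least reproducible promoter signal. The region from 55019017 to 55019544 on chromosome 7, with the summit 187 bp downstream of the canonical start, had a peak of 15 fragments in abemaciclib replicate 1 (22.9 over mean coverage, rank 9495) and none in the other libraries. Without abemaciclib replicate 2 it would count as gained, which made 9 genes with a gained promoter region. A much stronger region lay 236 kb downstream of that start, from 55254722 to 55255939, beyond the 3′ end of the gene. It was gained, with 65 and 53 fragments, fold 33.1 and 30.3 and ranks of 1534 and 1343, in the top 11.0% of both lists. Over mean coverage it stood at 99.1 and 102, between the replicate values of the IGF1R promoter described next and above every other receptor region. It covered the promoter of ELDR, a long non-coding gene downstream of EGFR, and the nearest protein-coding start, 54.9 kb away, was one of EGFR.

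IGF1R, the receptor for insulin-like growth factors, had the highest promoter level of the set. Its promoter region, on chromosome 15 from 98647515 to 98649805, was 2291 bp wide and had a peak in all 4 libraries. DMSO replicates 1 and 2 had 9 and 11 fragments, with fold 5.51 and 6.48 and rank 904 and 1038. Abemaciclib replicates 1 and 2 had 84 and 42 fragments, with fold 42.6 and 24.2 and rank 943 and 2049. Over mean coverage the DMSO libraries stood at 13.9 and 16.2 and the abemaciclib libraries at 128 and 80.6. How many of the other regions shared by all 4 libraries rose likewise was not counted. The DMSO peaks were narrow, at 150 and 222 bp against 1988 and 2266 bp, so that with 50% reciprocal overlap the region was called gained. The summit lay 285 bp upstream of the canonical start, in a region that also serves as the promoter of the non-coding gene IRAIN.

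A further IGF1R region lay deep in the 316 kb gene. It was gained, in an intron 204 kb downstream of the canonical start and 21.1 kb from the nearest annotated start of the gene. It held 46 and 37 fragments, with rank 3296 and 2942. Over mean coverage this was 70.1 and 71.0, below the gene's own promoter and above every gained promoter of the set. A weak region 2.19 kb downstream of the start had a peak of 5 fragments in abemaciclib replicate 2 alone.

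INSR, the insulin receptor, resembled IGF1R in having a strong promoter and a strong distal region, but had no DMSO peak. The promoter region on chromosome 19, from 7293556 to 7294998, peaked within a UTR 42 bp downstream of the canonical start and was gained with 41 and 33 fragments. Ranks were 2966 and 2629, and levels over mean coverage 62.5 and 63.3. A gained region from 7098794 to 7099653 lay downstream of the gene, 195 kb from the canonical start and 23.6 kb from the nearest annotated INSR start. It held 46 and 38 fragments, 70.1 and 72.9 over mean coverage. Its fold was 24.6 and 11.7, with local backgrounds of 0.907 and 2.34, so the fold differed between replicates while the level over mean coverage hardly did. An intron region 96.0 kb from the start had a peak of 14 fragments in abemaciclib replicate 1 alone.

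FGFR1 and FGFR2 encode receptors for fibroblast growth factors, and FGFR1 is often amplified in luminal tumours. The FGFR1 promoter region, from 38467461 to 38468896 on chromosome 8, was gained with 39 and 29 fragments, rank 4653 and 5699, and 59.5 and 55.6 over mean coverage. Its local background was high, at 2.18 and 2.73, which set its fold at 12.6 and 8.05, below that of INSR at a similar pileup.

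The FGFR2 promoter region, from 121598088 to 121598854 on chromosome 10, was gained with 22 and 10 fragments, rank 6478 and 9361, and 33.5 and 19.2 over mean coverage. These replicates lay further apart than those of FGFR1. Neither gene had another region.

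RET, the receptor for GDNF family ligands and a gene induced by oestrogen in luminal cells, had 3 regions on chromosome 10. The promoter region from 43076512 to 43077367 was gained with 20 and 12 fragments and ranked 6484 and 7654. A gained intron region from 43093597 to 43094085, 16.7 kb downstream of the canonical start, held 17 and 8 fragments and ranked 8800 and 11590. Both were higher in abemaciclib replicate 1, at 30.5 and 25.9 over mean coverage against 23 and 15.3. A region 50.9 kb upstream had a peak of 7 fragments in abemaciclib replicate 2 alone. The intron region was not gained at a q-value of at most 1e-05, and the promoter region was not gained with 50% reciprocal overlap.

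MET, the receptor for hepatocyte growth factor, had a single region. It spanned 116671716 to 116672434 on chromosome 7, peaked 55 bp upstream of the canonical start and was gained with 18 and 18 fragments. The ranks were 6898 and 5302, and the levels over mean coverage 27.4 and 34.5.

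With abemaciclib, the promoters thus fell into an order by level over mean coverage. IGF1R was highest, with both replicates above those of every other receptor promoter. The upstream ERBB2 promoter, INSR and FGFR1 followed between 55.6 and 65.2, with replicates too close to order. ERBB3, at 45.7 and 46.0, lay apart from both neighbours. MET, FGFR2 and RET overlapped between 19.2 and 34.5, and ERBB4 and the canonical ERBB2 start were lowest, between 12.2 and 19.2. EGFR and the ERBB2 region 3.29 kb downstream of the canonical start had only 1 peak each, at 22.9 and 19.8. These are levels per summit and were not tested between genes. They leave out local background, which was high at FGFR1. By fold over local background, FGFR1 stood at 12.6 and 8.05, ERBB3 at 12.4 and 11.5 and MET at 11.5 and 12.5. The fold of FGFR1 was thus the lowest of these genes in abemaciclib replicate 2 and the highest in replicate 1.

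The gained regions were also read at the depth of the DMSO libraries. Of the 28 abemaciclib peaks in the 14 gained regions, 27 would exceed the lowest −log10 p of DMSO replicate 1, and 28 that of DMSO replicate 2, when their pileup and background were scaled to the coverage of that library. Every peak did so in 13 of the 14 regions. These peaks had already passed the threshold in both abemaciclib libraries. The mean coverages were also close, at 0.649 and 0.677 in DMSO and 0.656 and 0.521 in abemaciclib. Passing was thus largely set in advance. No share over all gained regions was taken, and a part of depth in the gain was not tested.

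**Figure D2:**
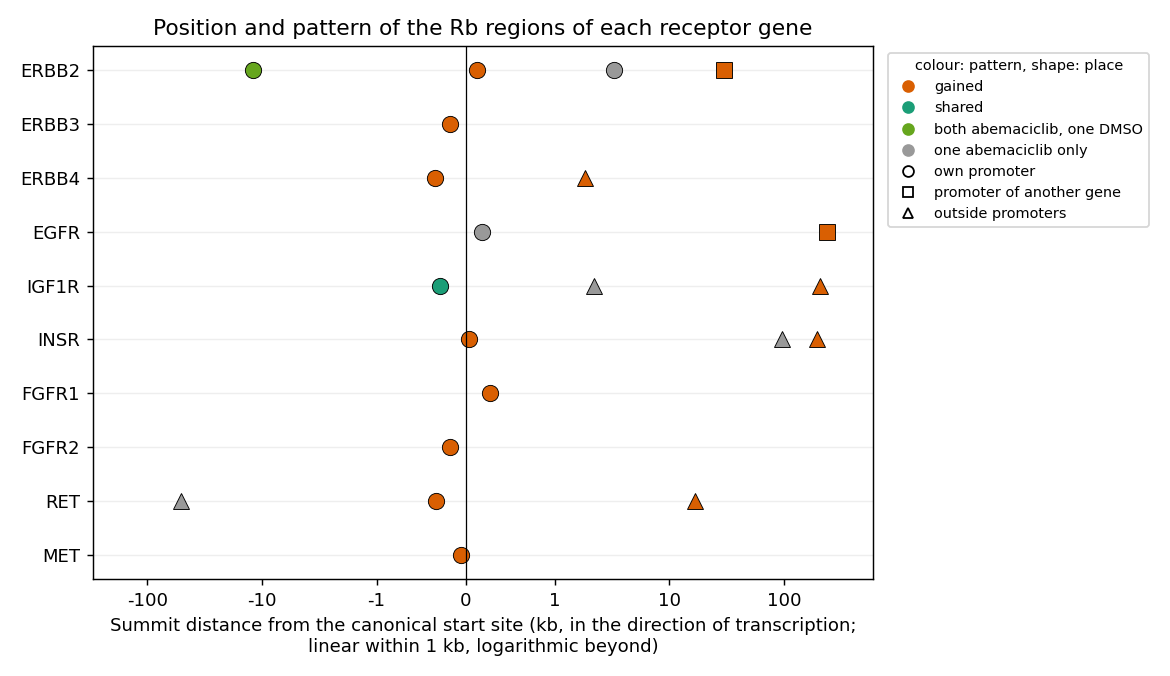
Each symbol is 1 merged Rb region, placed at the distance in kb of its summit from the gene's canonical start, with colour for the libraries that had a peak and shape for its place. Every gene has a region within 1 kb of its canonical start, and gained regions outside promoters are seen at ERBB4, IGF1R, INSR and RET.

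Outside promoters, 4 of the 10 genes had a gained region, ERBB4, IGF1R, INSR and RET, against 3.69% of all protein-coding genes. The receptor genes ranged in length from 26.7 kb for ERBB3 to 1163 kb for ERBB4. Among the 10144 protein-coding genes at least as long as ERBB3, 4.04% had one. ERBB3 is the shortest member, and the 4 genes with such a region were 53.3 to 1163 kb long. This share is therefore not matched for length. With start sites of protein-coding transcripts only, 5 receptor genes had one, EGFR being added, against 6.37% of protein-coding genes, and without abemaciclib replicate 2 the receptor count was 4, against 7.64%. The count was 2 genes at a q-value of at most 1e-05, IGF1R and INSR, and 0 with lists of equal length. The 4 receptor regions had a median width of 930 bp and median ranks of 6048 and 7110 in the abemaciclib lists, against 542 bp and ranks of 8834 and 8760 for the 797 gained regions outside promoters in all. These medians join unlike regions. IGF1R (3296 and 2942) and INSR (2710 and 3791) ranked well ahead of all such regions. ERBB4 (9110 and 10429) and RET (8800 and 11590) ranked near or behind them.

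At promoters the receptor genes were close to the middle of the lists. The 8 gained promoter regions had a median width of 812 bp and median ranks of 6481 and 6676, against 905 bp and ranks of 6374 and 6400 for the 7322 gained promoter regions of protein-coding genes. Counting all promoter regions with a peak in both abemaciclib libraries, the median of the mean rank was 5235 for the 9 receptor genes and 4803 for the 10485 protein-coding genes with one.

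Promoter composition was read from the RefSeq table, which matched 8 of the 10 genes and not ERBB3 or FGFR1. For ERBB2 it held the upstream promoter, 12.1 kb from the canonical start, whose region also had a DMSO peak. All 8 promoters of 300 bases were rich in CpG, meaning at least 50% G and C and an observed over expected CpG ratio of at least 0.6, against 64.2% of 15316 protein-coding promoters. IGF1R had the most CpG dinucleotides, 55 in 300 bases with 79.7% G and C, followed by FGFR2 with 52, and ERBB4 the fewest, with 19. Of the 8 genes, 6 had a gained promoter region, ERBB2 through the region at its canonical start and not the upstream one. The share among all genes with a CpG-rich promoter was 55.0%, and among those with a CpG-poor promoter 18.3%, so the share differed with promoter type.

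The E2F letters occurred in the promoters of 3 of the 8 genes, ERBB4, INSR and RET, against 17.4% of all promoters and 23.7% of the CpG-rich ones. A GC box was present in 7 of 8, the upstream ERBB2 promoter lacking it, against 59.2% and 79.5%. CCAAT was found in 2, ERBB2 and FGFR2, against 36.6%, and the CHR letters TTTGAA in none, against 12.1%. The E2F form TTCCCGC, like the form TTGCCGC, can share bases with a GC box read on the other strand, and a match describes letters, not a bound site. Windows of 200 bp around the summit were read for 19 regions of these 8 genes, gained or not, without those of ERBB3 and FGFR1. The E2F letters were found in 1, the INSR promoter. The shares among gained regions only were 17.2% of promoter windows and 18.7% of windows outside promoters. The intron window of RET was poor in CpG, with an observed over expected ratio of 0.208, and that of ERBB4 was not, at 0.853, against a median of 0.605 for gained regions outside promoters.

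Other genes of receptor signalling were counted in 5 lists of 154 genes. Among 48 other receptor tyrosine kinases, 20 had a gained promoter region (41.7%), close to the 40.1% of all genes, and 8 had a gained region outside promoters (16.7%), against 3.69%. The strongest promoter was that of STYK1, a kinase with no known ligand, which had a peak in all 4 libraries and ranked 234 and 451 in DMSO and 416 and 460 in abemaciclib. FLT4, the receptor for VEGF-C, was gained with rank 1156 and 1018. FGFR4, MST1R and EPHA6 also had a promoter peak in 1 DMSO library, with rank 983 in replicate 1, 300 in replicate 2 and 1365 in replicate 1. Outside promoters, gained regions were seen 8.19 kb from TYRO3 (rank 3848 and 4157) and within AATK (rank 4804 and 3814).

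Among 27 ligand genes, 10 had a gained promoter region (37.0%), 1 had a gained region outside promoters, GDNF (3.70%, against 3.69%), and none had a DMSO promoter peak. The EGFR ligands TGFA and AREG led, with rank 3058 and 3355 for TGFA and 4016 and 3570 for AREG. The share of ligands with a gained promoter region was thus close to that of all genes.

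Co-receptors and adaptors, which link the receptors to RAS and PI3K, had a gained promoter region in 18 of 31 genes (58.1%), against 40.1% of all genes. The best ranked were SHC1 (722 and 758), whose region is also the promoter of the cell cycle gene CKS1B and had a peak in 1 DMSO library, and CRKL (1505 and 1744), which had peaks in all 4. Gained regions outside promoters were found for 3 (9.68%, against 3.69%), IRS1 among them, with the best ranks at KLB and at GRB7. The GRB7 region, on chromosome 17 from 39753787 to 39754639, lay 11.1 kb from the nearest GRB7 start and outside the gene, in the neighbourhood of ERBB2, and ranked 6258 and 7377. The KLB region, ranked 6119 and 6922, lay inside KLB but 8.07 kb from the start of RPL9, the nearest protein-coding start.

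Feedback inhibitors had a gained promoter region in 18 of 25 genes (72.0%, against 40.1% of all genes) and a gained region outside promoters in 4 (16.0%, against 3.69%). CBLB, a ubiquitin ligase that removes active receptors, ranked 74 and 124 with abemaciclib, and SPRED3, which restrains RAS signalling and shares its region with the GGN promoter, ranked 295 and 237. Both had peaks in all 4 libraries. Outside promoters the best ranks were those of regions 7.04 kb from SOCS3 and within CBLC. Downstream kinases and GTPases had a gained promoter region in 17 of 23 genes (73.9%, against 40.1%) and a gained region outside promoters in 1, RPTOR, a share of 4.35% that was close to the 3.69% of all genes. PDPK1, a kinase that activates AKT and had 1 DMSO peak, ranked 861 and 1758.

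**Figure D3:**
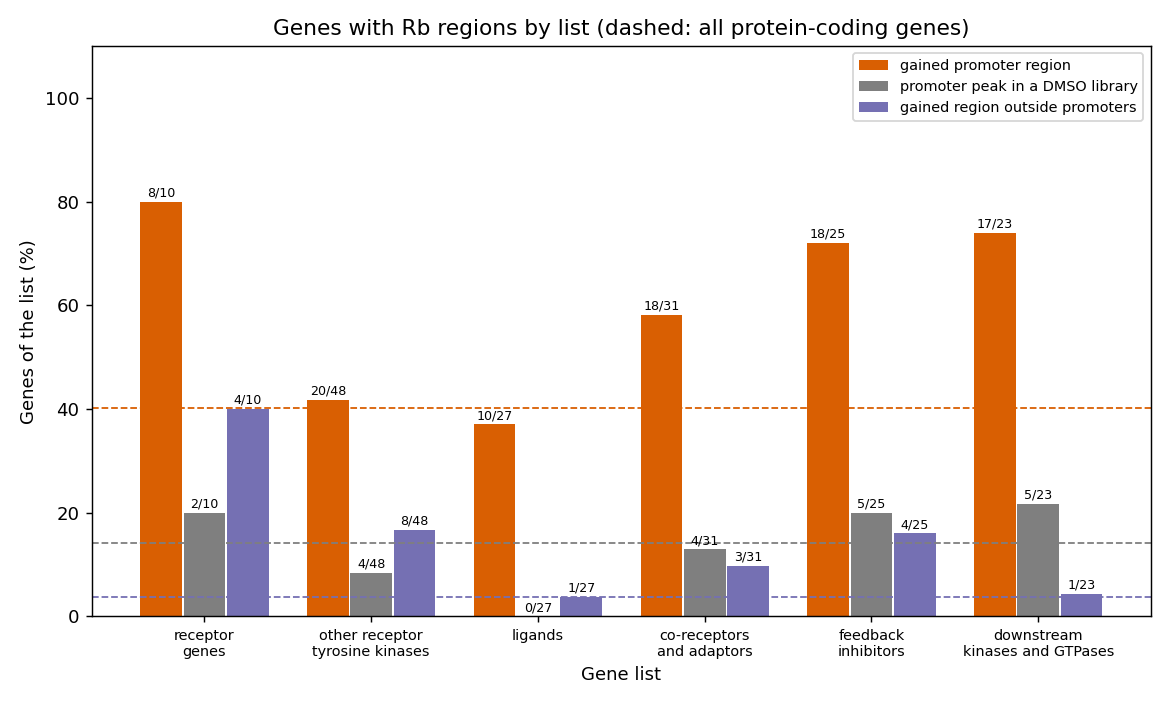
Bars give the percent of genes in each list with a gained promoter region, a promoter peak in a DMSO library or a gained region outside promoters, with counts above the bars, and dashed lines give the same for all protein-coding genes. The receptor genes stand at 8, 2 and 4 of 10.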

How the data were processed

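Per the labels and the study's methods, paired-end reads were trimmed with BBDuk, aligned to hg38 with Bowtie2 2.3.4.1, freed of mitochondrial and blacklisted reads with duplicates kept, and peaks were called per library by MACS2 2.2.7.1 at a q-value of 0.05 against IgG. The 2 replicates of a treatment were independent cultures. The deposited lists give a fold (ratio of pileup plus 1 to local background plus 1) and −log10 of a p-value and a q-value, as the authors' caller wrote them. They hold no counts over common regions, so no count model was run. The listed p-values and q-values were used to rank and filter. With the fold, the p-values also gave the pileups and mean coverages, and their lowest value set the bar for scaled peaks.

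Peaks of the 4 Rb libraries were merged on an overlap of 1 bp in Python 3.11.15 and assigned with GENCODE 44. Pileups were solved to within 0.001 of the listed −log10 p, and the assignment and the solving were tested on simulated peaks. Libraries were compared by an exact permutation test, and the replicate numbers mark no shared batch in the labels. The members and the lists were chosen with earlier results of these data known. All members are named, and of each list those with the best mean rank, apart from an item not reported here. In all, 464 peaks lay on sequences outside the reference.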

Additional observations from a re-analysis of the deposited data

How the results depend on the processing

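Over 7 results, 72 of 85 alternatives kept the sign of the difference in peaks, or a count or share within 1.5 times. Some could not alter a result and still count among the 72. Examples are the reach for promoter counts, and the reciprocal overlap and replicate block for the difference in peaks. Removing IgG2a overlaps likewise could not alter the receptor counts, so the tally does not measure robustness. With only the 1438 strongest peaks of each list, the difference in peaks per library was -0.500 (exact permutation p = 1.00), no receptor gene had a gained promoter region (0), none a gained region outside promoters (0 genes, 0 regions), and the shares of protein-coding genes were 1.10% and 0.0250%; by its construction this removes most abemaciclib peaks. At a q-value of at most 1e-05, 2 genes had 2 gained regions outside promoters, and 1 gene had a DMSO promoter peak. With 50% reciprocal overlap, 0 genes had one, since DMSO peaks were narrower. With start sites of protein-coding transcripts only, 6.37% of protein-coding genes had a gained region outside promoters. The other alternatives were 400 bp around summits, a promoter window of 1000 bp on both sides, removal of peaks overlapping IgG2a, and a reach of 50 kb.

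Leaving out each library in turn gave differences of 16.5 to 17.5 peaks, 8 to 9 receptor genes with a gained promoter region, 4 to 4 genes and 4 to 6 regions outside promoters, 1 to 2 genes with a DMSO promoter peak, and shares of 41.4% to 46.1% and 3.73% to 7.64% of protein-coding genes. The lowest DMSO count came without DMSO replicate 2 and the highest share without abemaciclib replicate 2. With the replicate block, which paired libraries by number and flipped the signs of their differences, the difference was 17 peaks (exact permutation p = 0.5, the smallest 2 pairs allow). The labels give the paired libraries only a shared number, so whether they came from the same experiment is unknown.

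Limits: 2 libraries a treatment cannot reach significance, a list shows only peaks past the threshold, and the DMSO pileups of 9 to 11 fragments lie near the smallest listed. Peaks mark where Rb was found and give no expression, and assignment to the nearest start is by distance.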
